A study of Mus musculus with 16 samples.

Results

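Cd44 was examined gene by exon across the surface and the core of the mouse forelimb bud. It is 1 of the 53800 genes in the deposited count table, found by its symbol (ENSMUSG00000005087), and it holds 30 of the 358989 exon bins in the deposited exon files. An exon bin is a stretch of exon that the same set of transcripts shares from end to end. Of the 30 Cd44 bins, 10 are the alternatively spliced variable exons, 8 are constant exons or parts of exons that lie wholly in coding sequence, and 12 are pieces of the first and last exons, which also hold noncoding ends. The 16 RNA libraries came from embryos of the B6 mouse strain, and the labels name no allele or treatment, so every group shares the same unmodified background as far as they say. Strips of the distal forelimb were loosened in cold trypsin, and the ectoderm was lifted off the mesoderm by hand. There were 8 groups of 2 libraries, made up of ectoderm on 4 successive days, the earliest E9.5 and the latest E12.5, and mesoderm on the same days. Ectoderm and mesoderm libraries of the same stage and replicate came from the same batch of embryos, and the 2 replicates were extracted with different RNA kits.

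CD44 is a cell surface receptor for hyaluronan, a large sugar polymer of the extracellular matrix. Its constant exons encode the hyaluronan-binding head, the membrane-spanning segment and the cytoplasmic tail. Between them lies a block of variable exons, v1 to v10, which add stretches to the stalk just outside the membrane. Mesenchymal and blood cells mostly make the standard form that skips the whole block, whereas epithelia include several of these exons, and the epithelial splicing factors ESRP1 and ESRP2 promote that inclusion. Exon v3 carries an attachment site for heparan sulfate, through which CD44 can bind heparin-binding growth factors, and CD44 with v3 has been described in the apical ectodermal ridge, the signalling rim of the limb bud. Exon v6 has been linked to signalling through the MET receptor.

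In mm10, Cd44 lies on chromosome 2 on the minus strand, at chr2:102811141-102901665. The only annotated gene that overlaps it is Gm23731, a short gene on the plus strand at chr2:102897960-102898066. The block skipped by the standard form spans chr2:102828611-102853014, from the base after the constant exon downstream of v10 to the base before the constant exon upstream of v1. All 10 variable exons have lengths that are multiples of 3, so each can be left out without shifting the reading frame, and together they hold 1245 bases. The 4 exons shown are those to which the results below refer most: v3 with the heparan sulfate site, v6 with the largest fitted layer difference over the mean of the stages, v8 with the highest use per base in ectoderm, and v10, which drew the most counts. They are exonic coding sequence from GENCODE M21, given 5′ to 3′ on the strand of the gene. Exon v3 lies at chr2:102845285-102845410 (126 bases), v6 at chr2:102839358-102839477 (120 bases), v8 at chr2:102834234-102834335 (102 bases) and v10 at chr2:102831330-102831536 (207 bases). Capitals in v3 mark bases 81 to 92 of the exon, 4 codons in the annotated frame that read serine, glycine, serine, glycine, the kind of run to which heparan sulfate is attached.
v3: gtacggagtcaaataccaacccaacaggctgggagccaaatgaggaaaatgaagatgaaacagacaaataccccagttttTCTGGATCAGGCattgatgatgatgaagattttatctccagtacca
v6: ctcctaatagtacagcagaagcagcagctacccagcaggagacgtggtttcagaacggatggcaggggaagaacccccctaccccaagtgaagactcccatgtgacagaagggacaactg
v8: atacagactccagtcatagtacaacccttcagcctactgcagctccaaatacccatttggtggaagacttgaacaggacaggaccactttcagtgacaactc
v10: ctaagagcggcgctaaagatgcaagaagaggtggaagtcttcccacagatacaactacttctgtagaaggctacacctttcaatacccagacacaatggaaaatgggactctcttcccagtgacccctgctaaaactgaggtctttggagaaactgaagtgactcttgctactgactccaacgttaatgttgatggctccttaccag
A search of all 10 variable exons in frame for codons of serine, glycine, serine and glycine in a row found this 1 site in v3 and none in the other 9.

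Total gene counts ran from 10005867 to 30438214 per library. The layers carried their own markers: over the mean of the 4 stages, all 10 surface epithelium genes (among them Epcam, Cdh1, Trp63 and Krt14) were called higher in ectoderm, and 9 of 10 limb mesenchyme genes (Prrx1 and Twist1 among them) were called lower, by the edgeR test described below, which called 24.3 percent of all tested genes higher and 21.4 percent lower. Markers of each layer were also detected in the other. Whether this came from carry-over or from expression in the layer itself was not tested. In mesoderm libraries the median epithelial marker stood at 0.110 to 2.22 percent of its level in the ectoderm of the same batch. In ectoderm libraries the median mesenchyme marker stood at 4.07 to 42.3 percent of its level in mesoderm. The highest value belonged to ectoderm E11.5 replicate 1, which stood apart from the next highest, 18.3 percent, so results that rest on it are given without it where they moved.

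Cd44 RNA was more abundant in ectoderm than in mesoderm at all 4 stages. In counts per 1000000 (CPM), the ectoderm libraries of E9.5 held 102.8 and 77.6, those of E10.5 held 156.7 and 175.5, those of E11.5 held 56.2 and 100.6, and those of E12.5 held 32.3 and 42.3. The mesoderm libraries of E9.5 held 8.41 and 4.61 CPM, those of E10.5 held 5.18 and 4.71, those of E11.5 held 8.11 and 6.13, and those of E12.5 held 11.6 and 5.06. The lowest ectoderm library therefore lay above the highest mesoderm library, and the layers did not overlap. How many of all tested genes separated the layers in this way was not counted. Lack of overlap is therefore description only, here and for the other genes named below. These libraries are bulk tissue, in which fewer cells making Cd44 and less Cd44 RNA per cell cannot be told apart. In the deposited FPKM values, which are scaled by transcript length, Cd44 averaged 31.6 ± 2.10 in ectoderm at its highest stage, E10.5, and 1.11 ± 0.254 in mesoderm of that stage (SD, n = 2 each).

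**Figure D1:**
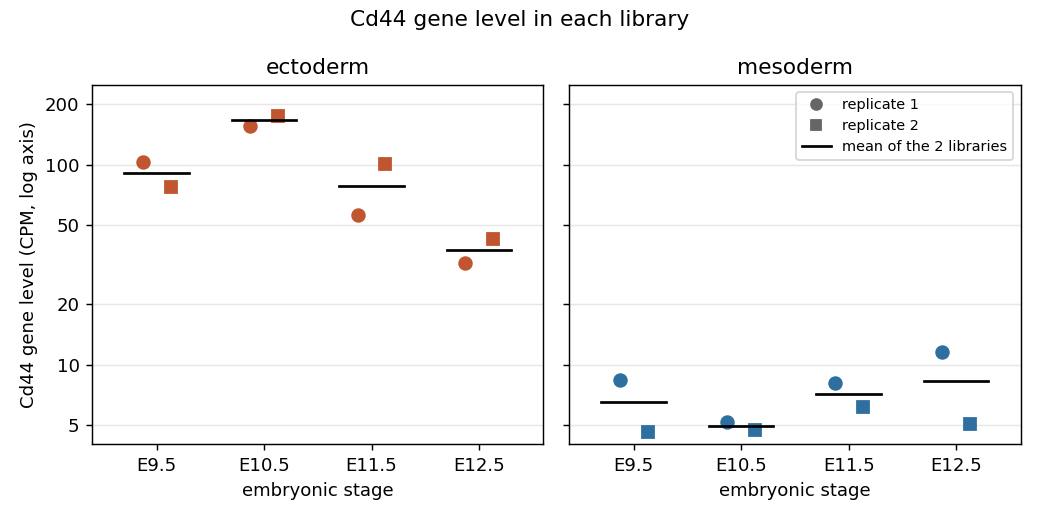
Cd44 gene level in CPM on a log axis, with 1 point per library, ectoderm on the left and mesoderm on the right, by embryonic stage; bars are means of the 2 libraries. All ectoderm points (32.3 to 175.5) lie above all mesoderm points (4.61 to 11.6), and the ectoderm points are highest at E10.5.

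The layer difference in Cd44 was called at each stage by the quasi-likelihood test of edgeR with Benjamini-Hochberg adjustment over 15501 genes. On the log2 scale the E9.5 difference was 3.78 (SE 0.439, edgeR adjusted p = 9.05e-05), the E10.5 difference 5.07 (SE 0.465, adjusted p = 1.32e-05), the E11.5 difference 3.45 (SE 0.432, adjusted p = 0.000166) and the E12.5 difference 2.16 (SE 0.411, adjusted p = 0.00219). The mean over the 4 stages was 3.61 (SE 0.218, adjusted p = 9.11e-08). At the single stages, 21.4, 26.4, 20.6 and 26.4 percent of all tested genes were called in either direction from E9.5 to E12.5, and 45.7 percent were called for the mean, so a call by itself is common here. Without ectoderm E11.5 replicate 1 the E11.5 difference was 3.76. The 4 stage differences compare separate libraries, but all share 1 estimate of the spread.

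Within ectoderm, Cd44 was highest at E10.5 and lowest at E12.5. The E9.5 mean was 90.2 ± 17.8 CPM, the E10.5 mean 166.1 ± 13.3, the E11.5 mean 78.4 ± 31.4 and the E12.5 mean 37.3 ± 7.05 (SD, n = 2 each). The 2 E10.5 libraries lay above and the 2 E12.5 libraries below all other ectoderm libraries, while E9.5 and E11.5 overlapped. Ectodermal Cd44 fell by 1.27 on the log2 scale at E12.5 relative to E9.5 (SE 0.394, edgeR adjusted p = 0.0487), in a comparison in which 16.1 percent of all tested genes were called in either direction and 7 percent were called lower. This call stood at the threshold. It was lost when RLE scaling replaced TMM scaling in edgeR (adjusted p = 0.0516). It was also lost in 10 of the 16 fits that each left out 1 library: any of the 4 ectoderm libraries compared, either ectoderm library of E10.5, and any mesoderm library of E10.5 or E11.5, with adjusted p up to 0.246. The single steps of 1 day were not called: 0.88 for E10.5 against E9.5 (adjusted p = 0.299), -1.09 for E11.5 against E10.5 (adjusted p = 0.445) and -1.07 for E12.5 against E11.5 (adjusted p = 0.364), by the same edgeR test. Without ectoderm E11.5 replicate 1 the second step was -0.72 and the third -1.43. Leaving out any 1 library, they ran from -1.56 to -0.72 and from -1.43 to -0.60, the last without ectoderm E11.5 replicate 2, and neither was called. With no filter on low counts all 3 steps were called by edgeR, at 0.88 (adjusted p = 0.0269), -1.05 (adjusted p = 0.00751) and -1.08 (adjusted p = 0.00384). Background shares for the filtered steps were 4.14, 0.00645 and 0.426 percent of genes called, and they do not apply to the fit with no filter.

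In mesoderm Cd44 was low at all stages, with an E9.5 mean of 6.51 ± 2.68 CPM, an E10.5 mean of 4.94 ± 0.331, an E11.5 mean of 7.12 ± 1.41 and an E12.5 mean of 8.31 ± 4.59 (SD, n = 2 each). The 2 E11.5 libraries lay above the 2 E10.5 libraries, and the other neighbouring stages overlapped. The step for E11.5 against E10.5 was 0.53 on the log2 scale and was not called (edgeR adjusted p = 0.888), with 0.394 percent of genes called. The difference for E12.5 against E9.5 was 0.35 on the log2 scale (SE 0.408, edgeR adjusted p = 0.579), where 29.6 percent of genes were called. It was -0.37 without mesoderm E12.5 replicate 1 and -0.0084 without mesoderm E9.5 replicate 2. Replicate 1 was the higher of the 2 mesoderm libraries at all 4 stages, and replicate number goes with the RNA kit. Summed CPM of 7 macrophage and other white cell markers, cells known to carry CD44, ranged from 1.58 to 20.6 in ectoderm libraries and from 2.34 to 104.0 in mesoderm libraries. Mesoderm E12.5 replicate 1 had both the highest sum of these markers and the highest mesodermal Cd44. Mesoderm E11.5 replicate 1 had the next highest sum, 49.4, with 8.11 CPM of Cd44. Others went the other way. Mesoderm E9.5 replicate 1 had the second highest mesodermal Cd44, 8.41 CPM, with the lowest mesoderm sum, 2.34. Mesoderm E12.5 replicate 2 had a sum of 45.4 with 5.06 CPM of Cd44. The part of white cells and of the kit in the mesodermal level was not tested. The change of ectoderm against that of mesoderm from E9.5 to E12.5 differed by -1.63 on the log2 scale (SE 0.567, edgeR adjusted p = 0.114), which was not called, with 8.27 percent of genes called in this filtered fit without a block. It was called at -1.64 with the embryo batch as a block (adjusted p = 0.0312), at -1.66 with no filter on low counts (adjusted p = 0.000639) and at -2.10 without mesoderm E12.5 replicate 2 (adjusted p = 0.0394). Without mesoderm E12.5 replicate 1 it was -0.91 (adjusted p = 0.453).

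The variable exons took about the same share of Cd44 counts in every ectoderm library and a far smaller one in mesoderm. The ectoderm libraries of E9.5 had 24.4 and 19.5 percent of their Cd44 bin counts in the variable exons, those of E10.5 had 22.2 and 23.1 percent, those of E11.5 had 22.9 and 21.7 percent, and those of E12.5 had 24.3 and 24.1 percent. The mesoderm libraries of E9.5 had 0.746 and 0 percent there, those of E10.5 had 4.07 and 11.9 percent, those of E11.5 had 2.26 and 6.57 percent, and those of E12.5 had 0.244 and 0 percent. The layers did not overlap. The share averaged 22.8 ± 1.64 percent in ectoderm and 3.22 ± 4.20 percent in mesoderm (SD, n = 8 libraries each), a difference of 19.5 percentage points (two-sided exact permutation test within stages, p = 0.00154, the smallest that its 1296 arrangements allow). This test did not keep the 2 layers of an embryo batch paired. With labels permuted within batches, direction and call stayed the same. The difference was 20.5 points without mesoderm E10.5 replicate 2, the mesoderm library with the highest share, and 19.4 points without ectoderm E11.5 replicate 1.

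**Figure D2:**
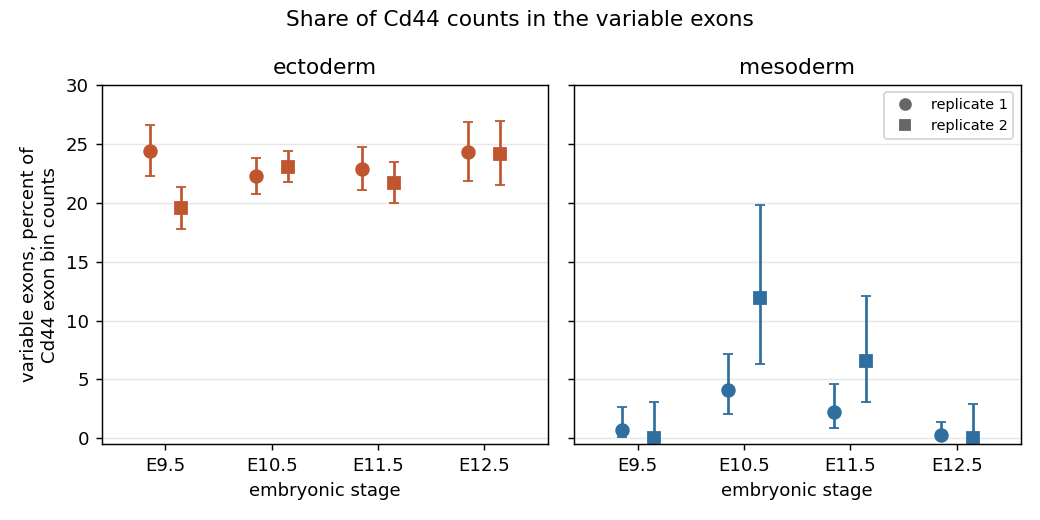
Percent of Cd44 exon bin counts in the 10 variable exons, 1 point per library, ectoderm on the left and mesoderm on the right, by stage; bars are exact Clopper-Pearson 95 percent intervals for counting error. Ectoderm libraries lie between 19.5 and 24.4 percent at all stages, and mesoderm libraries between 0 and 11.9 percent.

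The mesoderm shares rest on few reads. Their numerators were 2 and 0 counts for E9.5, 11 and 12 for E10.5, 7 and 9 for E11.5, and 1 and 0 for E12.5, out of 101 to 410 Cd44 bin counts. At the share of the ectoderm of the same batch, the 8 libraries would have held between 22.8 and 99.5 variable counts each. The count of 0 in E9.5 replicate 2 allows a share of up to 2.56 percent, and that in E12.5 replicate 2 up to 2.38 percent. For E10.5 replicate 2 the exact 95 percent interval (Clopper-Pearson) was 6.29 to 19.8 percent, and its upper bound meets the lowest ectoderm share. These intervals cover counting error only, and they are too narrow where 1 read was counted in each bin it overlaps. With counts summed over the 2 libraries of a group, the ectoderm share of E9.5 was 41.7 times the mesoderm share (95 percent counting interval 11.51 to 345.1). This ratio was 3.66 for E10.5 (2.43 to 5.80), 6.22 for E11.5 (3.81 to 10.9) and 129.8 for E12.5 (23.2 to 5135).

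Counted stage by stage, more variable exons drew counts in ectoderm than in mesoderm. Being detected is not the same as being used: v1 had 1, 3, 4 and 3 summed ectoderm counts from E9.5 to E12.5. All 10 variable exons had at least 1 count in ectoderm at each stage, and 8 of them at E10.5 and 7 at each of the other stages had at least 10 counts in both libraries. In mesoderm 2 of the 10 had at least 1 count at E9.5, 6 did so at E10.5, 7 did so at E11.5 and 1 did so at E12.5, and 0 reached 10 counts in both libraries. Depth of Cd44 itself differed between the layers, with 990 to 3909 bin counts in ectoderm libraries and 101 to 410 in mesoderm libraries, so these detection counts are not on an equal footing.

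The share of variable exons in ectoderm did not follow the gene level through the stages. At E11.5 and E12.5 together it was 23.2 ± 1.21 percent and at E9.5 and E10.5 together 22.3 ± 2.06 percent (SD, n = 4 each), a difference of 0.943 points (two-sided exact permutation test, p = 0.543, with 0.0286 the smallest possible). It ran from 0.0167 points without ectoderm E9.5 replicate 2 to 1.64 points without ectoderm E9.5 replicate 1. Per base and relative to the constant coding exons, the same comparison gave a ratio difference of -0.022. In mesoderm the share at the later stages was 2.268 ± 3.04 percent and at the earlier ones 4.17 ± 5.43 percent (SD, n = 4 each), a difference of -1.91 points (exact permutation test, p = 0.629) that became 0.661 without E10.5 replicate 2.

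Exon by exon, use in ectoderm was lowest at the 5′ end of the block and highest at v8 and v9. Use per base was taken relative to the 8 constant coding exons together, as their summed counts over their summed bases. Over the 8 ectoderm libraries it averaged 0.0211 for v1, 0.0736 for v2, 0.121 for v3, 0.535 for v4, 0.470 for v5, 0.851 for v6, 1.04 for v7, 1.33 for v8, 1.23 for v9 and 0.825 for v10. The constant exon just upstream of v1 stood at 0.723 and the one just downstream of v10 at 1.39 by the same measure. Exons v6 to v10 were thus covered about as densely as constant exons, v4 and v5 less, and v1 to v3 thinly. Short bins collect reads that reach in from neighbours, so a ratio above 1 does not show that an exon was in more transcripts than a constant one.

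**Figure D3:**
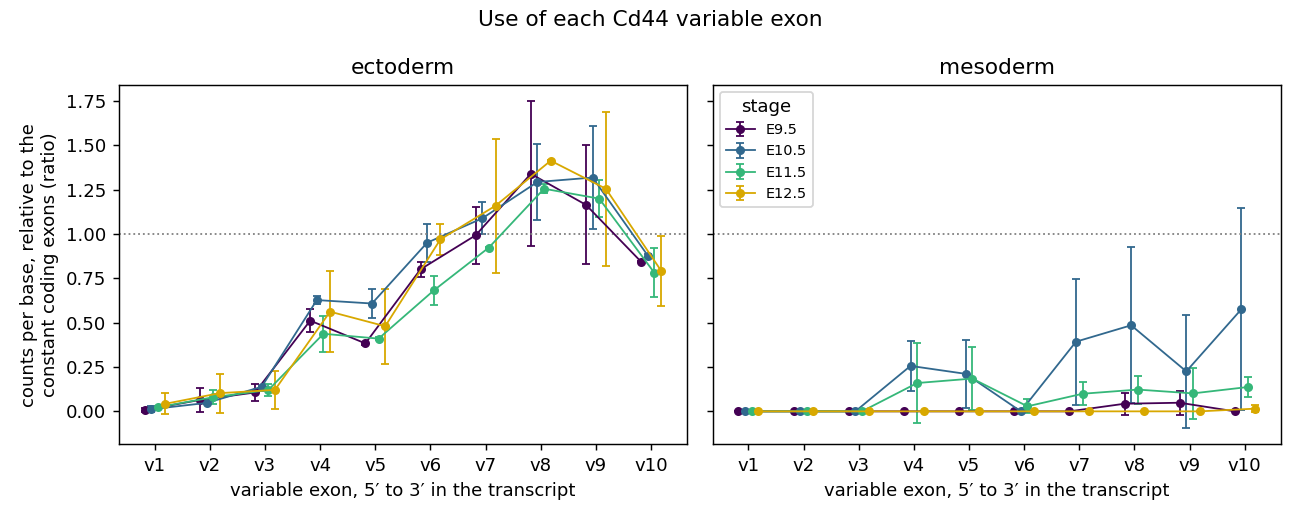
Counts per base of each variable exon relative to the constant coding exons (dotted line at 1), v1 to v10 in transcript order, ectoderm on the left and mesoderm on the right; points are means of 2 libraries per stage and bars are SD. In ectoderm the 4 stage profiles overlap, low at v1 to v3 and highest at v8 and v9, while mesoderm points at E9.5 and E12.5 lie near 0.

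Exon v10 drew the most reads. It had 79 and 96 counts in E9.5 ectoderm, 143 and 181 in E10.5 ectoderm, 102 and 119 in E11.5 ectoderm, and 46 and 55 in E12.5 ectoderm. It had 0 and 0 counts in E9.5 mesoderm, 4 and 5 in E10.5 mesoderm, 3 and 2 in E11.5 mesoderm, and 1 and 0 in E12.5 mesoderm. As a share of Cd44 counts, v10 ran from 3.95 to 5.56 percent in ectoderm and from 0 to 4.95 percent in mesoderm, and the highest mesoderm library, E10.5 replicate 2, overlapped the ectoderm range.

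Exon v6 was nearly absent from mesoderm. There were 45 and 51 counts in E9.5 ectoderm, 83 and 122 in E10.5 ectoderm, 54 and 58 in E11.5 ectoderm, and 42 and 31 in E12.5 ectoderm, together 486 of 16818 Cd44 counts. Mesoderm held 1 count in all, in E11.5 replicate 1, of 1739 Cd44 counts. Its share was 50.2 times as high in ectoderm as in mesoderm (95 percent counting interval 8.98 to 1989). Exon v9 had 535 counts in ectoderm and 3 in mesoderm, a share ratio of 18.4 (6.28 to 89.7), and v10 had 821 and 15, a ratio of 5.66 (3.41 to 10.2). The intervals of v6, v9 and v10 all overlap one another, so the order of these exons is not settled at this depth.

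Exon v3, with the heparan sulfate site shown in capitals above, was present but scarce in ectoderm. The ectoderm libraries had 8 and 5 counts on E9.5, 14 and 17 on E10.5, 13 and 8 on E11.5, and 2 and 7 on E12.5, in all 74 of 16818, or 0.440 percent. No mesoderm library had a v3 count. The 0 of 1739 mesoderm counts allows a share of up to 0.173 percent, with the floor of 3 counts taken over the 8 mesoderm libraries. The ectoderm share of v3 was 2.55 times that limit, a ratio that leaves out the counting error of the 74 ectoderm counts. At the ectoderm share, 7.65 v3 counts would have been seen in mesoderm. Exon v2 had 37 ectoderm counts and 0 mesoderm counts. Its ectoderm share was 1.27 times the mesoderm floor and would have given 3.83 mesoderm counts. With counting error in both layers, a difference in v2 is not settled at this depth. Exon v1 had 11 ectoderm counts and 0 mesoderm counts, and its ectoderm share was under the mesoderm floor, so its layers could not be told apart at this depth.

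Bin use was tested with diffSpliceDGE of edgeR, which compares each bin with the other bins of its gene, over 156025 bins of 12203 genes. Of the 10 variable exons, v1 and v2 did not pass the filter on low counts, and those that passed did so through ectoderm. For the mean of the 4 stages 7 of the 8 tested exons were called higher in ectoderm, v4 to v10, where 0.162 percent of all tested bins were called higher. The log2 difference in use was 4.87 for v6 (adjusted p = 1.73e-08), 4.07 for v7 (3.59e-08), 3.92 for v9 (1.33e-07), 3.56 for v8 (1.15e-07) and 3.32 for v10 (7.88e-08), with Benjamini-Hochberg adjustment. It was 3.05 for v4 (diffSpliceDGE adjusted p = 0.00351) and 2.88 for v5 (0.0114). Summed over the 8 mesoderm libraries, each of these exons had between 1 (v6) and 15 (v10) counts, so the sizes of the differences are uncertain. The v5 call was lost with the embryo batch as a block (0.0986), by limma's diffSplice (0.103) and in 5 of 16 fits without 1 library, those of the 4 mesoderm replicate 1 libraries and of ectoderm E12.5 replicate 1. The v4 call was lost in 2 of 16, without mesoderm replicate 1 of E11.5 or of E12.5. Exon v3 differed by 2.70 and was not called (adjusted p = 0.386). Over the same comparison 0 of 8 constant coding bins and 0 of 9 tested end-exon bins were called, with 3 and 2 at an unadjusted p under 0.05.

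At single stages fewer exons were called. At E9.5 only v10 was called higher in ectoderm (log2 difference 6.14, diffSpliceDGE adjusted p = 0.0232), with 0.025 percent of bins called higher and 7 of the 8 tested exons at an unadjusted p under 0.05. At E12.5 there were 5 exons, v6 to v10, with log2 differences of 4.25 to 6.25 and 0.0436 percent of bins called higher. Mesoderm had 0 counts of v10 at E9.5, and at E12.5 it had 0 of v6 to v9 and 1 of v10. The sizes of these log2 differences are therefore set by the floor of the counts and are not measured. At E10.5 and E11.5 no variable exon was called by diffSpliceDGE, with 4 and 5 at an unadjusted p under 0.05 and backgrounds of 0.0333 and 0.0282 percent. limma's diffSplice and the fit with the embryo batch as a block also called 0 at both stages. At E9.5 and E12.5 the fit with the block called 0 and 0 exons, and limma's diffSplice 0 and 2. The E9.5 call was lost in each of the 4 fits that left out 1 E9.5 library, and also without either ectoderm E10.5 library. The E12.5 count was 0 without ectoderm E12.5 replicate 1 or either mesoderm E12.5 library, 1 without ectoderm E12.5 replicate 2, 2 without either ectoderm E10.5 library and 3 without either mesoderm E11.5 library. Without a test, v6 to v9 and v3, of the 8 exons that passed the filter, had a higher share in all 8 ectoderm libraries than in all 8 mesoderm libraries, where 0.173 percent of all tested bins did so. For v3 mesoderm was at 0 at a far lower Cd44 depth, so its placing rests on as few as 2 counts in an ectoderm library. None of the 8 constant coding or 12 end-exon bins did.

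Between stages, exon use was tested for E12.5 against E9.5, and none of the 8 exons that passed the filter was called. In that comparison 0 of 8 tested exons were called by diffSpliceDGE in ectoderm, where log2 differences ran from -0.06 to 0.33 and 0 had an unadjusted p under 0.05. Of all bins 0.0115 percent were called in that comparison. In mesoderm 0 of 8 were called as well, with 0 at an unadjusted p under 0.05 and 0.0141 percent of bins called, over counts too few to place a stage difference. The interaction of layer and stage gave 0 calls and 0 at an unadjusted p under 0.05, with 0.000641 percent of bins called. It rests on mesoderm variable counts of 2 at E9.5 and 1 at E12.5, too few for this test to decide the question. limma's diffSplice called 0 in all 3 of these comparisons.

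The constant exons show how much Cd44 RNA the mesoderm held beside the variable block. Constant coding exons summed to 42.5 and 29.7 CPM in E9.5 ectoderm, 62.5 and 59.0 in E10.5 ectoderm, 27.4 and 38.7 in E11.5 ectoderm, and 13.9 and 16.8 in E12.5 ectoderm. They summed to 4.87 and 2.21 CPM in E9.5 mesoderm, 3.45 and 1.501 in E10.5 mesoderm, 5.81 and 3.26 in E11.5 mesoderm, and 6.23 and 2.44 in E12.5 mesoderm. Per batch, mesoderm thus held 2.54 to 45.0 percent of the ectodermal level of the constant exons. For the variable exons the E9.5 batches held 0.2402 and 0 percent, the E10.5 batches 0.684 and 1.36 percent, the E11.5 batches 1.48 and 1.83 percent, and the E12.5 batches 0.337 and 0 percent.

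These small mesodermal values lay in the same range as those of epithelial marker genes. The median of the 10 epithelial markers in mesoderm, as a percent of ectoderm of the same batch, was 0.523 and 0.696 for the E9.5 batches, 1.38 and 0.717 for those of E10.5, 2.22 and 1.19 for those of E11.5, and 0.282 and 0.110 for those of E12.5. Summed over the 10 markers, ectoderm libraries held 2077 to 6700 CPM and mesoderm libraries 6.71 to 80.0 CPM, and no marker was at 0 in any library. As a percent of ectoderm, both the marker median and the variable exons were highest in mesoderm at E10.5 and E11.5. By summed CPM the markers were not: mesoderm E10.5 replicate 2 held 23.4, below the E9.5 libraries with 25.6 and 24.3. That E10.5 library had the highest variable share in mesoderm, 11.9 percent. The part of epithelial carry-over in the mesodermal variable counts was not tested. The constant exons stood above the epithelial median in all 8 mesoderm libraries.

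**Figure D4:**
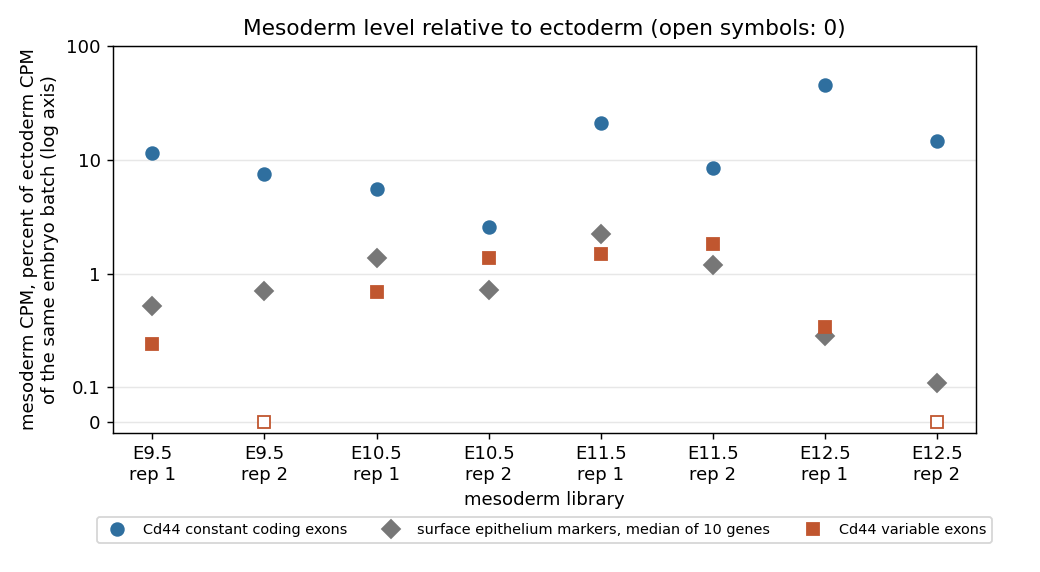
Mesoderm CPM as a percent of ectoderm CPM of the same embryo batch (log axis, open symbols at 0), for 8 mesoderm libraries, of Cd44 constant coding exons, the median of 10 surface epithelium markers and Cd44 variable exons. Constant exons (2.54 to 45.0 percent) lie above the markers (0.110 to 2.22 percent) in each library, and variable exons (0 to 1.83 percent) lie near the markers.

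Among 22 splicing regulators, all tested, 5 were called higher and 6 lower in ectoderm over the mean of the 4 stages (edgeR), with a median log2 difference of -0.21 in the list and 0.01 over all tested genes. Here 24.3 percent of all genes were called higher and 21.4 percent lower. Esrp1 and Esrp2, the epithelial splicing factors that promote variable exon inclusion, differed most (both are also among the 10 epithelial markers). Esrp1 ran from 194.9 to 318.0 CPM in ectoderm, with a median of 264.0, and from 0.262 to 4.52 CPM in mesoderm, with a median of 1.97. Esrp2 ran from 37.9 to 141.2 CPM in ectoderm (median 113.8) and from 0.122 to 1.77 CPM in mesoderm (median 0.795). Neither overlapped between the layers, and the log2 differences were 7.53 for Esrp1 (SE 0.255, edgeR adjusted p = 1.34e-09) and 7.16 for Esrp2 (SE 0.178, edgeR adjusted p = 2.19e-10). Through the stages Esrp1 averaged 198.8, 264.0, 252.8 and 311.6 CPM in ectoderm from E9.5 to E12.5, so its mean was highest at the stage where that of ectodermal Cd44 was lowest. Rbm47, an RNA-binding protein of epithelia, was also higher (2.47, SE 0.492, adjusted p = 0.00146), with ectoderm libraries at 1.15 to 3.67 CPM and mesoderm libraries at 0 to 1.13 CPM. Without mesoderm E9.5 replicate 2 the Rbm47 difference was 3.89. The 6 called lower differed by small amounts, and their number was 10 by DESeq2 and 13 when the fit also held embryo batch as a block.

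Has3 and Has2, enzymes that make hyaluronan, the ligand of CD44, were high in opposite layers. Has3 ran from 6.15 to 81.7 CPM in ectoderm (median 57.8) and from 0.0955 to 1.995 CPM in mesoderm (median 0.359). Has2 ran from 2.24 to 17.4 CPM in ectoderm (median 6.38) and from 30.8 to 92.5 CPM in mesoderm (median 46.1). The layers did not overlap for either gene, with Has3 higher in ectoderm (log2 difference 6.26, SE 0.234, edgeR adjusted p = 2.23e-09) and Has2 lower in ectoderm (-3.00, SE 0.297, adjusted p = 6.10e-06). Has1, the other hyaluronan synthase, was at 0 CPM in all ectoderm libraries and at most 0.0478 CPM in mesoderm, and was not tested. Within ectoderm the E9.5 mean of Has3 was 6.51 CPM, and its means were 40.2, 75.5 and 76.5 CPM on the 3 following days. Stab1 and Stab2, scavenger receptors for hyaluronan on vessel-lining cells and macrophages, were lower in ectoderm, with log2 differences of -4.69 (SE 0.447) and -5.11 (SE 0.582). Stab2 was scarce, with ectoderm libraries at 0 to 0.121 CPM and mesoderm libraries at 0.200 to 2.39 CPM. The list of 14 hyaluronan enzymes, ligands and receptors had 10 tested members, of which 5 were called higher and 5 lower, with a median of 0.05, beside 24.3 and 21.4 percent of all tested genes.

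Among proteins that bind the CD44 tail, Ezr and Msn were high in opposite layers. Ezr (ezrin), the membrane-actin linker of epithelia, ran from 138.9 to 355.6 CPM in ectoderm (median 237.1) and from 23.0 to 109.5 CPM in mesoderm (median 43.9). Msn (moesin), its relative in mesenchymal cells, ran from 45.0 to 123.2 CPM in ectoderm (median 68.5) and from 250.5 to 351.8 CPM in mesoderm (median 331.0). Neither gene overlapped between the layers, with log2 differences of 2.23 for Ezr (SE 0.166, edgeR adjusted p = 5.48e-07) and -2.06 for Msn (SE 0.168, adjusted p = 1.17e-06). Ank3 (ankyrin-G) was higher in ectoderm by 1.72 (SE 0.0790, edgeR adjusted p = 1.03e-08). Of the 6 partners, all tested, 2 were called higher and 2 lower, with a median of -0.17, which is near the 24.3 and 21.4 percent of all tested genes. The number called lower was 4 when the edgeR fit held a batch block.

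Of the proteases that cut CD44, 6 of 7 were tested, with 1 called higher, 1 lower and a median of 0.06, beside 24.3 and 21.4 percent of all tested genes. Adam10, the main sheddase, differed by 0.18 (SE 0.117, edgeR adjusted p = 0.236). It was called, at 0.19, when the edgeR fit held embryo batch as a block (adjusted p = 0.00477). Mmp9 was lower in ectoderm (log2 difference -1.58, SE 0.409, adjusted p = 0.00771), with ectoderm libraries at 0 to 0.739 CPM and mesoderm libraries at 0.136 to 4.92 CPM, ranges that overlapped. Without ectoderm E11.5 replicate 1 the Mmp9 difference was -2.66. Its mesoderm libraries were highest at E9.5, at a mean of 4.89 CPM, and averaged 0.258 to 0.322 CPM at the 3 later stages.

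In the list of growth factors, receptors and membrane partners linked to CD44, 11 of 14 tested members were called higher in ectoderm and 2 lower. The median was 2.97, beside 24.3 and 21.4 percent of all tested genes. This list includes signals of the ectodermal ridge and was chosen with earlier results of these data known. The count therefore describes the list and is no test of CD44 partners. The largest differences were those of the ridge signals Fgf8 (8.08, SE 0.398, edgeR adjusted p = 1.74e-08), Fgf4 (7.39, SE 0.888, adjusted p = 4.99e-05) and Fgf17 (6.81, SE 0.430, adjusted p = 3.5e-07). In the order of the 4 stages, Fgf8 averaged 276.0, 1250, 307.4 and 68.7 CPM in ectoderm, against 0.515, 6.21, 2.81 and 0.118 CPM in mesoderm. Fgf4 averaged 3.32, 169.7, 16.7 and 1.52 CPM in ectoderm in that order, and at most 0.619 CPM in mesoderm. Both peaked at E10.5, the stage at which ectodermal Cd44 was highest.

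**Figure D5:**
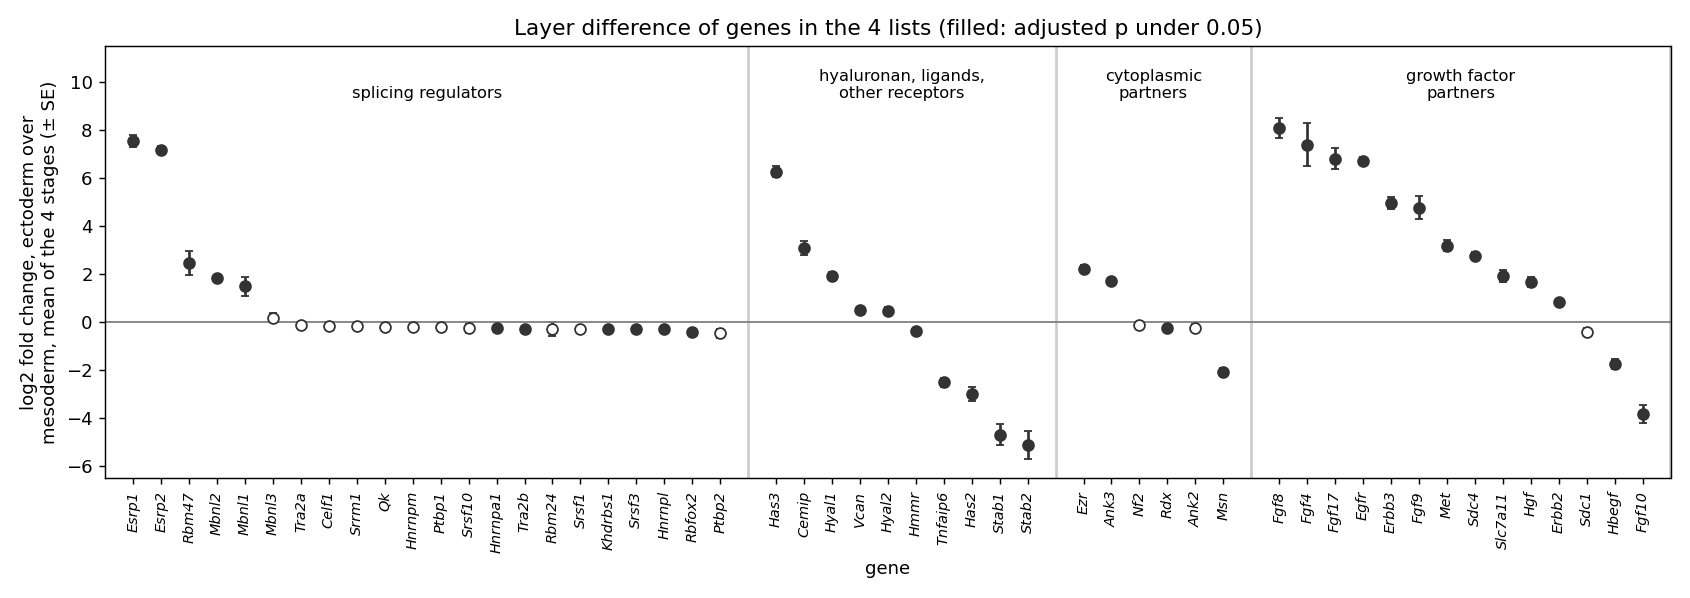
Log2 fold change of ectoderm over mesoderm, mean of the 4 stages, with SE, for the tested genes of 4 lists; filled points had an edgeR adjusted p under 0.05. Fgf8, Esrp1, Fgf4 and Esrp2 lie highest (7.16 to 8.08), and Stab2 and Stab1 lie lowest (-5.11 and -4.69).

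Over the 16 libraries, the tested genes whose log2 CPM was most like that of Cd44 were Pcsk5, a proprotein convertase (Pearson r = 0.989), Abcg5 (0.975), Dcbld1 (0.975), Adamts3, a procollagen-cutting protease (0.974), and Slc45a3 (0.973). Among the genes most like the variable share were Smim22 (0.983), Tmprss13, a membrane-bound serine protease (0.978), Gja1, a gap junction subunit (0.976), and Bicdl2 (0.972). These correlations are descriptions: the libraries form 2 clusters, one per layer, and ranks rest on the same 16 libraries as the values.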

How the data were processed

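Polyadenylated RNA of 16 libraries was sequenced with a stranded kit, per the labels' protocols. Per the submitters' processing notes, the authors used build mm10 and bedtools 2.27.1, Cufflinks 2.2.1, cutadapt 1.16 and STAR 2.6.0c. The authors deposited whole-number counts per gene, counts per exon bin and FPKM values from Cufflinks; the counting tools and their strand setting are not given in the sources used here. Entries that name no bin, 2.17 to 6.67 percent of the counts listed in the exon files, were left out.

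Bins were numbered by rebuilding them from the coding transcripts of GENCODE M21 (8 of the 9 of Cd44), which gave the deposited 30 bins (32 with all transcripts), and the deposited number in 96.3 percent of genes. Counts followed bin length in genomic order (Spearman 0.454 across bins, against -0.358 reversed).

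CPM were counts per 1000000 of edgeR's effective library size (TMM). Genes and bins were tested with edgeR 4.0.16 in R 4.3.3 (quasi-likelihood, filterByExpr, 1 mean for each of 8 groups; diffSpliceDGE for bins), in 14 gene and 8 bin comparisons that share libraries. Calls were made where p, adjusted by Benjamini-Hochberg across all features, was under 0.05. The code was tested on simulated data. The edgeR p-values measure the spread between the 2 replicates of a group, pooled over the groups. Replicates differ in both embryo batch and RNA kit. Alternatives were RLE scaling, no filter (bins: at least 10 counts), DESeq2 1.42.0, limma 3.58.1, a replicate block and leaving out each library. Per the labels, a shared number within a stage marks a shared embryo batch (Pearson r of deviations 0.463 to 0.602 in the same batch, 0.394 to 0.527 across stages). Within a layer, the number marks the RNA kit.

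Cd44, its exons and the gene lists were chosen with earlier results of these data known. Named beside Cd44 were Esrp1, Esrp2, Has2, Fgf8, the 3 largest layer differences of each list, and the 5 genes most alike by Pearson correlation of log2 CPM (prior count 0.5), apart from genes that are not reported here. Of the other marker lists, over the mean of the stages, endothelial and erythroid genes were lower in ectoderm (7 of 7 each), as were 5 of 7 white cell genes and 1 of 4 tested neural crest genes, and 1 of 3 tested muscle precursor genes was higher. Of all tested genes 21.4 percent were called lower and 24.3 percent higher, so the neural crest and muscle precursor counts lie near those shares.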

Additional observations from a re-analysis of the deposited data

How the results depend on the processing

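The layer difference of Cd44 at each stage, and that of the variable share, kept direction and call under all alternatives. Leaving out 1 library each time, the differences ran from -1.48 to -1.06 for ectoderm E12.5 against E9.5, -0.37 to 0.86 for mesoderm E12.5 against E9.5, -0.76 to 0.10 for mesoderm E10.5 against E9.5, -0.50 to 0.69 for mesoderm E12.5 against E11.5, -2.13 to -0.91 for the interaction, and -3.34 to 0.661 points for the mesoderm share of later against earlier stages, and the exons called from 0 to 1 at E9.5 and 0 to 5 at E12.5. RLE scaling ended the call of ectoderm E12.5 against E9.5 (-1.26). With no filter on low counts, the ectoderm steps (0.88, -1.05 and -1.08) and the interaction (-1.66) were called. With the replicate block, the interaction was called (-1.64) and no exon at E9.5 or E12.5 was called (0 and 0); limma's diffSplice called 0 and 2. The block also gave 6 called exons for the mean of stages, against 7, and changed no other Cd44 call. Per base, the ectoderm share of later against earlier stages was -0.022. The causes were not tested. List counts that moved were lower splicing regulators (13 with the block, 10 by DESeq2, against 6), lower cytoplasmic partners (1 to 4, against 2) and higher sheddases (0 to 3, against 1). Mesodermal Cd44 depth limits all exon results: ectoderm libraries held 990 to 3909 Cd44 bin counts and mesoderm libraries 101 to 410.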
